A study of Mus musculus with 12 samples.

Results

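The 51 genes described here encode the machinery of G2 and mitosis, from the kinase CDK1 and its cyclins to the proteins of the spindle, the kinetochore and the cleavage furrow. They are a list of named genes, taken by symbol from the 51707 genes to which the deposited transcripts were assigned, and they were grouped into 11 roles. Each symbol matched 1 gene identifier, and all 51 passed the filter on low counts that left 14711 genes for testing. Bulk RNA was sequenced from wild-type MLO-Y4 cells, a mouse osteocyte-like line, in 12 libraries of 4 groups with 3 libraries each. All cells were grown on plates coated with rat tail type I collagen at 0.15 mg/mL. The groups were undifferentiated control cells, undifferentiated cells given recombinant human BIGH3 (the matrix protein encoded by TGFBI), differentiated control cells and differentiated cells given BIGH3. The medium for differentiation was α-MEM with 4 mM β-glycerophosphate, ascorbic acid at 50 µg/mL and 10% serum, so the state of the cells and the medium cannot be told apart. The BIGH3 dose, the duration of treatment, what the controls received and whether replicate libraries came from separate cultures are not given in the sources used here. P-values therefore measure the spread between these libraries, which may be technical.

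A dividing cell makes most mitotic transcripts late in its cycle, so their amount in a culture follows how many cells are passing through G2 and M. In resting cells many of these genes are held silent by the DREAM complex, which binds a promoter element named the cell cycle genes homology region (CHR). CCAAT boxes in the same promoters are bound by the activator NF-Y. Mature osteocytes have left the cell cycle. MLO-Y4 is a single immortalised line, derived from mice that carried the SV40 large T antigen under an osteocalcin promoter, and it divides in culture, which limits it as a model of a resting osteocyte. The study asked how BIGH3 acts on Gja1, the connexin of osteocyte gap junctions. Mitosis was not the question named for the series.

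Depth lay between 19014492 and 27612155 estimated reads per library. Levels are given below as CPM, reads scaled to a common library sum after TMM normalization, always in the order of libraries 1, 2 and 3 of a group. The names of the deposited files carry the prefix MC3 and not the name of the labelled line, and which line was used was not tested here. Of 7 osteocyte genes, Gja1, Pdpn, Dmp1 and Phex were read in every library, Mepe stayed below 1 CPM, Sost had reads in differentiated control libraries 2 and 3 only, and Fgf23 was at 0 in all 12. Liver transcripts, which an osteocyte line should lack, summed over 14 genes to between 4.89 and 24.2 CPM in 9 libraries. They reached 112.6 CPM in undifferentiated control 2, 60.7 in differentiated control 2 and 62.3 in differentiated BIGH3 3, led by the fetal serum gene Afp at 63.3, 24.9 and 27.0 CPM, and undifferentiated BIGH3 1 held 11.2 CPM of Afp. Each count of called genes among the 51 was repeated without these 3 and without these 4 libraries. The libraries kept were not free of liver transcripts. Undifferentiated BIGH3 1, which was left out, summed to 23.7 CPM over the 14 genes, and differentiated control 3, which was kept, to 24.2 CPM. Erythroid genes summed to at most 2.85 CPM in a library, leukocyte and macrophage genes to 3.42, endothelial genes to 8.004, epithelial genes to 19.8, muscle genes to 31.9 and adipocyte genes to 3.05 CPM, with the erythroid genes Alas2 and Slc4a1 and the leukocyte gene Tyrobp at 0 in all libraries.

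The 51 genes together made up 2704 to 2905 CPM in undifferentiated controls and 2728 to 3060 CPM in undifferentiated cells with BIGH3. Differentiated controls held 974.2 to 981.3 CPM of them, and differentiated cells with BIGH3 held 3039 to 3420 CPM. The position of the treated differentiated libraries against the undifferentiated ones depended on the scale: all 3 lay above all 6 for 20 genes and below for 3 in TMM-scaled CPM, for 11 and 7 in CPM by library totals, and for 5 and 12 in TPM (the authors' unit of transcript share, which corrects for length). The share of all genes in these positions was not computed, so the counts do not set the 51 apart from other genes. Against the undifferentiated treated libraries alone, in TMM-scaled CPM, 21 of the 51 lay above and 6 below. Of all genes, 32% lay above and 30.5% below in that comparison. Positions given below are in TMM-scaled CPM, with the other scales named where they differ. The 5 genes above on all 3 scales were Cdk1, Aurka, Bub1b, Ube2c and Top2a, and the 3 below were Cdc25b, Racgap1 and Ncapd2. The differentiated controls were the lowest group with no overlap, and each of the 51 genes was lowest in that group, both in CPM and in TPM. In a bulk culture, fewer cells in G2 and M and less transcript per cell cannot be told apart.

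**Figure D1:**
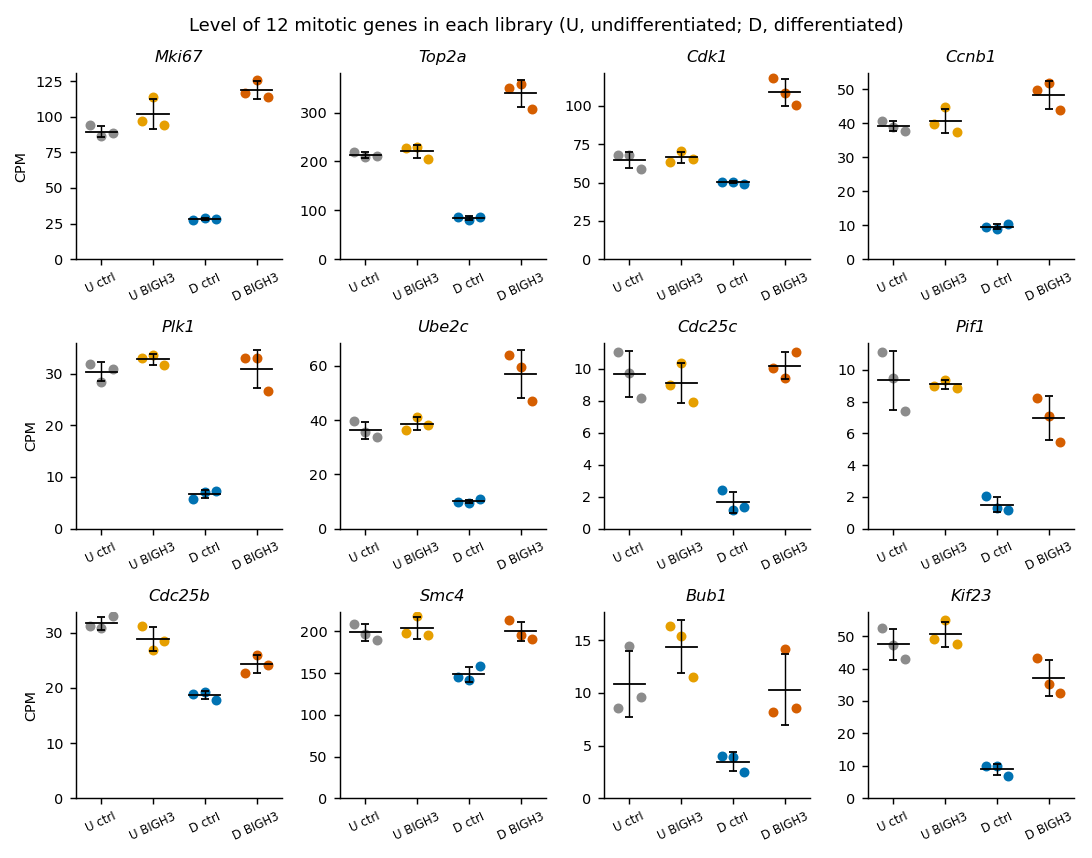
Level in CPM (vertical axis, from 0) of 12 mitotic genes in the 12 libraries, by group (U, undifferentiated; D, differentiated; ctrl, control). Points are libraries, and the line and error bar are the mean ± SD of 3. The 3 differentiated control libraries lie below every other library for each gene drawn, and Cdc25b and Smc4 differ least between the groups.

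In undifferentiated cells BIGH3 left no mitotic gene past the test. With an adjusted p below 0.05 as the threshold (edgeR quasi-likelihood test, Benjamini-Hochberg over 14711 genes), 0 of the 51 genes were higher and 0 lower, beside 0.0068% and 0.0136% of all genes tested. At an unadjusted p below 0.05 there were 5 of 51, against 599 of 14711 over all genes, and DESeq2 called 0 of the 51. The median log2 fold change of the 51 was 0.055 and that of all genes 0.00. Of the 51 values 41 were positive, beside 7321 of 14711 over all genes. In TPM (limma on log2(TPM + 0.1)) the median of the 51 was -0.035 and that of all genes -0.063. Mki67, the proliferation marker that coats mitotic chromosomes, had the smallest p, with 93.9, 86.4 and 88.4 CPM in controls and 97.1, 114 and 94.2 CPM with BIGH3. Its log2 difference was 0.18 ± 0.062 (edgeR, adjusted p = 1). Ccna2, which encodes cyclin A2, the partner of CDK2 and CDK1, stood at 62.8, 61.8 and 59.8 CPM in controls against 68.6, 68.1 and 66.5 CPM with BIGH3. For these genes and for Spc25, an outer kinetochore subunit, the treated libraries all lay above the controls. In all, 3 genes lay wholly above and 48 overlapped, where 4.59% of all genes lay above and 4.37% below.

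The next smallest p-values belonged to kinetochore and spindle genes. Nuf2, of the microtubule-binding NDC80 complex, read 39.6, 38.04 and 41.1 CPM in controls and 46.5, 50.2 and 39.6 CPM with BIGH3. Its partner Ndc80 read 23.8, 20.5 and 23.7 CPM in controls against 23.7, 28.9 and 25.7 CPM with BIGH3. Spc25 of the same complex read 31.1, 29.7 and 29.1 CPM against 34.1, 35.95 and 32.7 CPM, and of these genes it alone had groups that did not overlap. Tpx2, which activates Aurora A on spindle microtubules, read 119, 116 and 123 CPM against 130.4, 140.1 and 122 CPM. These differences, of 0.20, 0.20, 0.19 and 0.13 on the log2 scale, were not past the threshold, each with an adjusted p of 1. The highest and lowest estimates were those of Bub1 at 0.41 ± 0.28 and Cdc25b at -0.13 ± 0.072, and both genes' groups overlapped. In TPM the mean of Bub1 was lower with BIGH3, at 6.23 ± 1.13 (SD) against 7.12 ± 0.667 in controls. The median standard error of the 51 estimates was 0.081.

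Differentiated control cells held far fewer mitotic transcripts than undifferentiated ones, and differentiated cells given BIGH3 held more than their controls. Of the 51 genes, 51 were lower in differentiated than in undifferentiated control cells, where 28.6% of all genes were lower and 29.1% higher. The median log2 fold change of the 51 was -1.86, beside -0.011 over all genes. With BIGH3 in differentiated cells 51 of 51 were higher, where 22.6% of all genes were higher and 22.9% lower, with a median of 2.08 beside -0.006. Both comparisons use the differentiated control libraries, so a fall in the first and a rise in the second are not independent. No library of the differentiated controls reached into the range of the other group for any of the 51 genes in either comparison, whereas 31.5% of all genes lay wholly lower in the first and 27.3% wholly higher in the second. The fall was over 4-fold for 17 genes, 2-fold to 4-fold for 30 and less for 4, and the rise was over 4-fold for 34, 2-fold to 4-fold for 15 and less for 2. The calls of all 51 genes in both comparisons stood in each alternative setting tried, including those without the libraries that held liver transcripts.

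**Figure D2:**
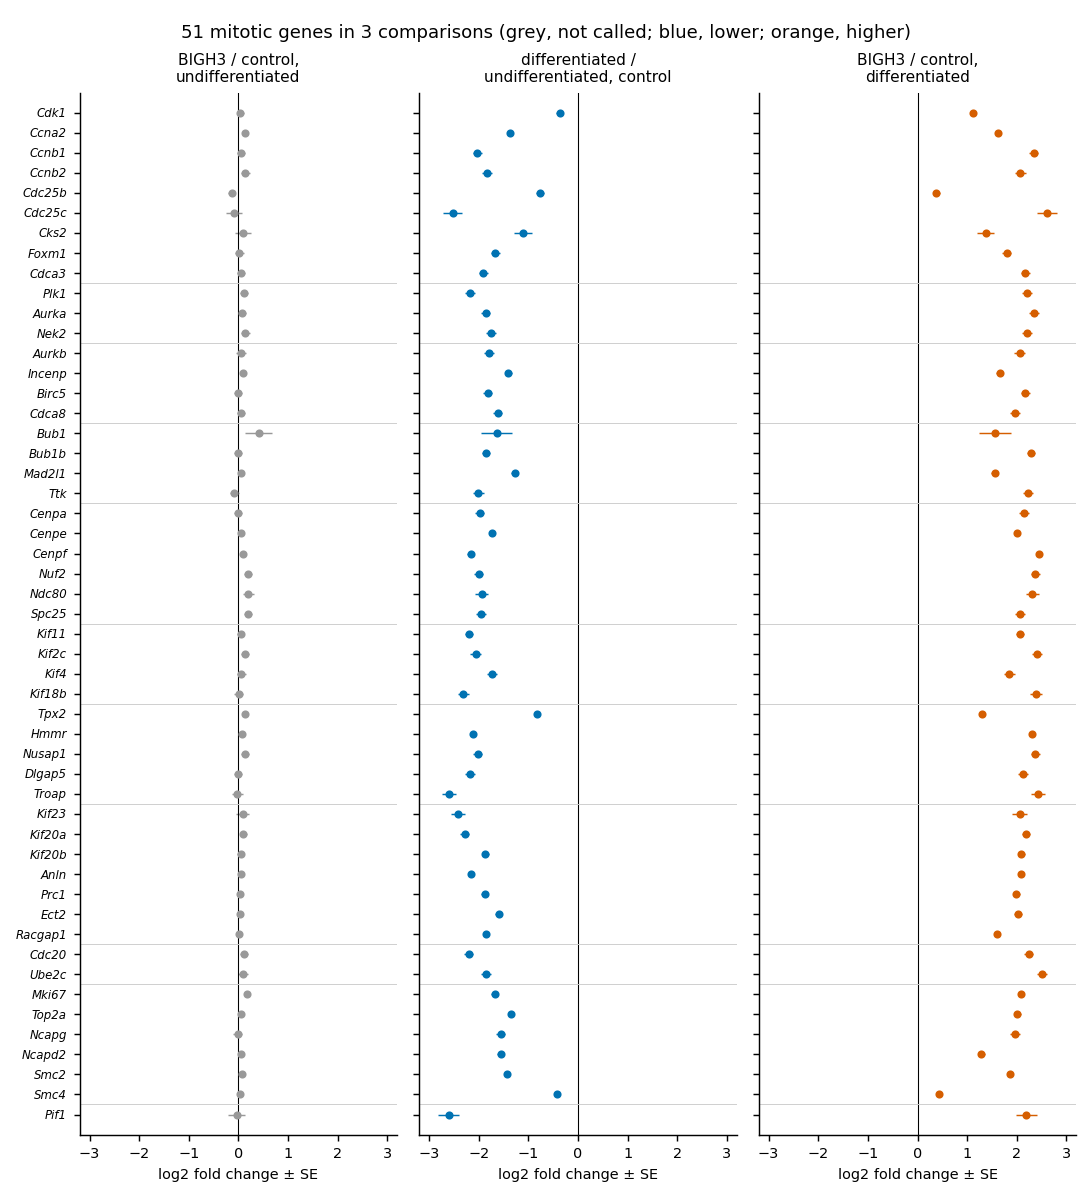
Log2 fold change ± SE (horizontal axis) of the 51 mitotic genes in 3 comparisons, ordered by role and separated by grey lines. Grey points were not called, blue were called lower and orange higher at an adjusted p below 0.05. All 51 are grey in undifferentiated cells, blue for differentiation of control cells and orange for BIGH3 in differentiated cells, with Cdk1, Cdc25b, Tpx2 and Smc4 nearest to 0 in the centre panel.

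The genes of mitotic entry showed the widest range. CDK1 is the kinase that drives cells into mitosis, and its gene had the highest TPM of the 51 in each group. Cdk1 read 67.7, 67.9 and 58.9 CPM in undifferentiated controls, 63.6, 70.7 and 65.4 with BIGH3, 50.5, 50.5 and 49.3 in differentiated controls and 118, 108 and 100.5 with BIGH3. Its fall on differentiation, 1.29-fold, was the smallest of the 51, and the differentiated treated libraries stood above all other groups. It was 2.17-fold higher with BIGH3 in differentiated cells (log2 1.12 ± 0.065, adjusted p = 1e-11). Ccnb1 encodes cyclin B1, the partner that makes CDK1 active at the G2/M border. It read 40.6, 38.9 and 37.8 CPM in undifferentiated controls, 39.7, 44.6 and 37.5 with BIGH3, 9.34, 8.91 and 10.5 in differentiated controls and 49.6, 51.7 and 43.8 with BIGH3. That was a 4.08-fold fall and a 5.05-fold rise (adjusted p = 1.11e-14 for the rise). Ccna2 fell to 23.9, 23.9 and 23.9 CPM in differentiated controls and stood at 78.05, 72.2 and 68.8 CPM with BIGH3, a rise of 1.61 ± 0.058 on the log2 scale.

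The CDC25 phosphatases remove the inhibitory phosphates from CDK1, and their genes lay at opposite ends of the response. Cdc25c had the largest rise with BIGH3 of the 51, from 2.398, 1.18 and 1.37 CPM to 10.1, 9.41 and 11.1 CPM, and read 11.1, 9.77 and 8.17 CPM in undifferentiated controls and 8.99, 10.4 and 7.92 CPM in undifferentiated treated cells. The rise was 6.09-fold (log2 2.61 ± 0.20), and the lowest library held 25 reads of the gene, the fewest for any of the 51. Cdc25b had the smallest rise, from 18.9, 19.3 and 17.9 CPM to 22.8, 25.9 and 24.2 CPM, against 31.3, 30.8 and 32.95 CPM in undifferentiated controls and 31.1, 26.96 and 28.6 CPM in undifferentiated treated cells. It rose 1.3-fold with BIGH3 (log2 0.38 ± 0.077, adjusted p = 0.000397), and the treated differentiated libraries stayed below all undifferentiated ones. The other genes of this role were Ccnb2 (cyclin B2), Foxm1 (a transcription factor of G2/M genes), Cdca3 and Cks2 (a small CDK-binding protein), which rose by 2.07, 1.79, 2.17 and 1.37 on the log2 scale.

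The mitotic kinases rose by 2.21 ± 0.099 to 2.35 ± 0.098 on the log2 scale with BIGH3 in differentiated cells. PLK1 acts on centrosomes, kinetochores and the cleavage plane, Aurora A on centrosome maturation and the spindle poles, and NEK2 on centrosome separation. Plk1 read 31.8, 28.4 and 30.9 CPM in undifferentiated controls, 32.98, 33.6 and 31.6 with BIGH3, 5.83, 7.07 and 7.23 in differentiated controls and 32.9, 33.05 and 26.7 with BIGH3. Differentiated treated libraries 1 and 2 lay within the undifferentiated range and library 3 just below it, and in TPM all 3 lay below. The rise was 4.62-fold (adjusted p = 1.69e-13) after a 4.53-fold fall. Aurka read 37.4, 34.6 and 35.5 CPM in undifferentiated controls, 38.2, 38.7 and 35.9 with BIGH3, 11.1, 10.7 and 7.69 in differentiated controls and 52.9, 50 and 47.01 with BIGH3, a 5.08-fold rise, and its treated differentiated libraries were above every undifferentiated library. Nek2 rose by 2.21 ± 0.10 on the log2 scale, from 4.55, 4.43 and 3.94 to 19.9, 20.4 and 19.6 CPM.

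The chromosomal passenger complex joins Aurora B to INCENP, survivin and borealin, and corrects faulty attachments of chromosomes to the spindle. Birc5, the survivin gene, read 41.3, 33.9 and 41.01 CPM in undifferentiated controls, 39.3, 39.5 and 37.1 with BIGH3, 11.2, 10.9 and 10.8 in differentiated controls and 53.4, 51.02 and 43.9 with BIGH3. Incenp, the scaffold, read 50.5, 45.7 and 47.9 CPM in undifferentiated controls, 55.5, 51.02 and 47.5 with BIGH3, 18.6, 18.9 and 16.9 in differentiated controls and 57.3, 58.8 and 55.4 with BIGH3. For both genes the differentiated controls were lowest, the undifferentiated groups overlapped, and the treated differentiated libraries overlapped with no control library of their own state. Their rises were 4.504-fold (adjusted p = 4.92e-14) and 3.15-fold (adjusted p = 9.56e-14). Aurkb and Cdca8, the borealin gene, rose by 2.06 ± 0.10 and 1.96 ± 0.091 on the log2 scale.

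The spindle checkpoint delays anaphase until every chromosome is attached, by holding back CDC20. Bub1b, which encodes the BUBR1 component of the inhibitor, read 47.9, 40.9 and 43.8 CPM in undifferentiated controls, 44.6, 45.5 and 42.1 with BIGH3, 12.03, 13.5 and 11.4 in differentiated controls and 60.8, 62.9 and 55.2 with BIGH3, a 4.85-fold rise (adjusted p = 4.24e-15). Mad2l1, encoding MAD2, read 64.5, 61.4 and 58.4 CPM in undifferentiated controls, 63.5, 66.05 and 61.8 with BIGH3, 24.5, 26.97 and 24.7 in differentiated controls and 78.5, 77.8 and 66.6 with BIGH3, a 2.93-fold rise. For Bub1b the treated differentiated libraries stood above all others on each scale. For Mad2l1 they did so in TMM-scaled CPM, and overlapped with the undifferentiated range by library totals and in TPM. Ttk, the MPS1 kinase gene that starts the signal, rose by 2.22 ± 0.10 on the log2 scale. Bub1, a kinase gene of the same checkpoint, varied widely between replicates in CPM, but less in TPM in undifferentiated controls (6.88, 6.61 and 7.88). It read 8.53, 14.4 and 9.598 CPM in undifferentiated controls, 16.3, 15.3 and 11.5 with BIGH3, 4.05, 3.91 and 2.47 in differentiated controls and 8.16, 14.2 and 8.56 with BIGH3, and its rise of 1.56 ± 0.32 (adjusted p = 0.00283) had the largest standard error of the 51.

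Kinetochores tie centromeres to microtubules. Cenpf, a large kinetochore and nuclear matrix protein that peaks in G2 and M, read 87.4, 78.4 and 86.2 CPM in undifferentiated controls, 92.2, 93.05 and 83.1 with BIGH3, 17.4, 20.3 and 18.6 in differentiated controls and 102, 102 and 102 with BIGH3. Its rise was 5.43-fold (log2 2.44 ± 0.065), and with Hmmr it shared the smallest adjusted p of the 51, 5.8e-17. Cenpe, the kinesin that carries chromosomes to the plate, read 103, 93.1 and 96.8 CPM in undifferentiated controls, 103, 105 and 94.8 with BIGH3, 29.9, 28.7 and 29.97 in differentiated controls and 119, 127 and 111 with BIGH3, a 4.03-fold rise. The differentiated controls were lowest for both genes and the treated differentiated libraries lay above every undifferentiated library, whereas by library totals and in TPM they overlapped with them. Nuf2 rose from 9.92, 10.04 and 9.79 CPM in differentiated controls to 53.6, 54.2 and 46.5 CPM with BIGH3. Ndc80 rose from 6.74, 5.33 and 5.54 to 29.6, 33.6 and 24.5 CPM and Spc25 from 9.01, 6.93 and 7.18 to 35.8, 32.8 and 28.2 CPM. Cenpa, the centromeric histone gene, rose by 2.15 ± 0.096 on the log2 scale.

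Kinesins and microtubule-binding proteins build and focus the spindle. Kif11, the motor that pushes spindle poles apart, read 67.01, 63.3 and 63.5 CPM in undifferentiated controls, 69.2, 70.96 and 59.5 with BIGH3, 14.97, 12.7 and 14.7 in differentiated controls and 58.6, 63.6 and 54.2 with BIGH3. Kif2c, a depolymerase that frees wrongly attached microtubules, read 27.3, 23.98 and 26 CPM in undifferentiated controls, 28.4, 30.3 and 26.2 with BIGH3, 6.99, 5.33 and 6.09 in differentiated controls and 34.6, 34.2 and 28.8 with BIGH3. They rose 4.16-fold and 5.29-fold with BIGH3 (adjusted p = 3.14e-14 and 8.53e-14), and for Kif11 treated differentiated library 2 lay within the undifferentiated range and libraries 1 and 3 below it (all 3 lay below by library totals and in TPM). The chromokinesin gene Kif4 and Kif18b, another depolymerase, rose by 1.85 ± 0.11 and 2.38 ± 0.11 on the log2 scale. Hmmr, a spindle assembly factor also known as a hyaluronan receptor, read 66.1, 63.05 and 60.8 CPM in undifferentiated controls, 67.2, 68.1 and 63.7 with BIGH3, 14.5, 15.6 and 13.9 in differentiated controls and 72.1, 72.6 and 72.9 with BIGH3. Nusap1, which bundles spindle microtubules, read 50.6, 49.9 and 48.3 CPM in undifferentiated controls, 52.7, 59.96 and 49.6 with BIGH3, 11, 12.4 and 13.3 in differentiated controls and 65.4, 68.6 and 55.5 with BIGH3. They rose 4.96-fold and 5.18-fold. Tpx2 was less reduced in differentiated controls, at 66.02, 67.8 and 68.1 CPM, and stood at 170.3, 176 and 147 CPM with BIGH3. Dlgap5 and Troap, both spindle proteins, rose by 2.12 ± 0.10 and 2.43 ± 0.14 on the log2 scale.

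Cytokinesis genes rose by between 1.60 and 2.18 on the log2 scale. Anln, the actin-binding anillin of the cleavage furrow, read 115, 112 and 103 CPM in undifferentiated controls, 111, 124 and 107 with BIGH3, 25.3, 24.1 and 24.6 in differentiated controls and 109.8, 107 and 97.5 with BIGH3. Kif20b, a kinesin of late cytokinesis, read 55.8, 49.4 and 51.4 CPM in undifferentiated controls, 53.03, 57.8 and 50.4 with BIGH3, 13.8, 15.1 and 13.96 in differentiated controls and 60.4, 61.8 and 60 with BIGH3. For Anln, treated differentiated libraries 1 and 2 lay within the undifferentiated range and library 3 below it, and all 3 were below by library totals and in TPM. For Kif20b all 3 lay above the range, and overlapped with it by library totals and in TPM. Kif23 and Racgap1 encode the partners of centralspindlin, which bundles the midzone. Kif23 read 52.5, 47.2 and 42.96 CPM in undifferentiated controls, 49.2, 54.95 and 47.5 with BIGH3, 10, 9.85 and 6.77 in differentiated controls and 43.2, 35.2 and 32.6 with BIGH3. Racgap1 read 78.2, 76.9 and 76.9 CPM in undifferentiated controls, 80.9, 80.4 and 72.2 with BIGH3, 20.5, 21.97 and 21.6 in differentiated controls and 66.97, 67.5 and 59.6 with BIGH3. In both, the treated differentiated libraries lay above their own controls and below all libraries of the undifferentiated treated cells, but in TPM library 1 of Kif23 overlapped with the latter. Kif20a, the motor that brings the passenger complex to the midzone, read 72.5, 66.4 and 77.9 CPM in undifferentiated controls, 82.04, 81.2 and 69.1 with BIGH3, 14.2, 15.6 and 14.7 in differentiated controls and 72.2, 67.8 and 62.1 with BIGH3. Prc1, the microtubule crosslinker of the midzone, and Ect2, the exchange factor that activates RhoA at the furrow, rose by 1.99 ± 0.071 and 2.02 ± 0.076 on the log2 scale.

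The anaphase-promoting complex (APC/C) ends mitosis by marking cyclin B and securin for destruction. Its activator Cdc20 read 45.9, 39.9 and 43.6 CPM in undifferentiated controls, 49.6, 46.6 and 42.8 with BIGH3, 10.4, 9.38 and 8.24 in differentiated controls and 45.2, 47.1 and 40.6 with BIGH3. Ube2c, the ubiquitin carrier that primes its substrates, read 39.7, 35.5 and 33.6 CPM in undifferentiated controls, 36.5, 41.2 and 38.3 with BIGH3, 9.71, 9.48 and 10.8 in differentiated controls and 64.05, 59.5 and 46.96 with BIGH3. With BIGH3 in differentiated cells Cdc20 stood within the undifferentiated range in CPM and below it in TPM, and Ube2c stood above it on each scale. Their rises were 4.73-fold and 5.68-fold (adjusted p = 4.51e-14 and 1.11e-12).

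Top2a encodes the topoisomerase that untangles sister DNA before anaphase. It read 219.9, 209 and 212 CPM in undifferentiated controls, 229, 229 and 206 with BIGH3, 86.98, 79.6 and 85.6 in differentiated controls and 352, 358 and 308 with BIGH3, a 4.04-fold rise (log2 2.01 ± 0.062, adjusted p = 4.61e-16). Mki67 stood at 27.2, 28.9 and 27.9 CPM in differentiated controls and 117, 126 and 114 CPM with BIGH3, a 4.24-fold rise. The estimates differed in size among the condensin genes. Smc4, a core ATPase of both condensins, read 209, 197 and 189.8 CPM in undifferentiated controls, 198, 219 and 196 with BIGH3, 146, 141 and 159 in differentiated controls and 213, 196 and 191 with BIGH3. It rose 1.35-fold with BIGH3 (adjusted p = 5.2e-06). Its ATPase partner Smc2 rose 3.63-fold, from 63.3, 59.3 and 62.8 to 236, 234 and 204 CPM. Ncapd2, a condensin I subunit, read 100.5, 92.1 and 96.4 CPM in undifferentiated controls, 109, 94.7 and 95.8 with BIGH3, 32.7, 34.1 and 31.3 in differentiated controls and 81.3, 84.9 and 72.5 with BIGH3. Its 2.43-fold rise left it below all undifferentiated libraries. Ncapg of the same complex rose 3.89-fold, from 11.1, 12.02 and 11.7 to 48.4, 44.6 and 42.5 CPM. Pif1, a helicase gene that acts in DNA replication and at telomeres and is listed here with the mitotic genes, had the largest fall on differentiation. It read 11.1, 9.48 and 7.399 CPM in undifferentiated controls, 8.99, 9.36 and 8.87 with BIGH3, 2.07, 1.27 and 1.19 in differentiated controls and 8.25, 7.11 and 5.49 with BIGH3, from as few as 26 reads in a library. The fall was 6.09-fold (log2 -2.61 ± 0.21) and the rise 4.57-fold.

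The effect of BIGH3 differed between the states for nearly all of the genes. The interaction, the log2 effect of BIGH3 in differentiated cells minus that in undifferentiated cells, was positive and called for 50 of the 51, beside 16.2% of all genes called positive and 16% negative, with a median of 2.01 beside 0.00. It was 2.69 ± 0.26 for Cdc25c, the largest, 1.90 ± 0.091 for Mki67, 2.10 ± 0.13 for Plk1, 2.28 ± 0.12 for Ccnb1, 1.96 ± 0.085 for Top2a and 1.08 ± 0.091 for Cdk1. The smallest was that of Smc4 at 0.39 ± 0.084 (adjusted p = 0.00116). Bub1, at 1.15 ± 0.42, was the gene not called (adjusted p = 0.0642), and DESeq2 called it at an adjusted p of 0.00756.

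Whether differentiated cells given BIGH3 held more or less of these transcripts than undifferentiated cells given BIGH3 depended on the gene. Of the 51, 21 were higher, 6 lower and 24 not called, beside 28.9% of all genes higher and 27.7% lower. Cdk1 was the most raised, at 0.71 ± 0.064 on the log2 scale, followed by Top2a at 0.62 ± 0.059, Ube2c at 0.56 ± 0.096, Bub1b at 0.44 ± 0.072 and Ncapg at 0.42 ± 0.086. The genes called lower were Kif23 at -0.45 ± 0.13, Ncapd2 at -0.33 ± 0.063, Racgap1 at -0.27 ± 0.059, Cdc25b at -0.25 ± 0.074, Kif20a at -0.20 ± 0.073 and Kif11 at -0.18 ± 0.074. By role, chromosome structure had 4 genes higher and 1 lower of 6, mitotic entry 3 and 1 of 9, and cytokinesis 2 and 3 of 7. Kinesins of the spindle had 0 higher and 1 lower of 4, and the spindle checkpoint 3 higher and 0 lower of 4. No gene of the remaining roles was called lower. Counts by role were made with TMM only. In TPM (limma), Mad2l1, Ttk, Mki67 and Smc2 were not called and Smc4 was called lower, so the differences between roles depend on the scale. The lowest estimate, that of Bub1 at -0.48 ± 0.28, was not called (adjusted p = 0.172).

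This comparison moved with the scale. Scaling by library totals in place of TMM lowered the median of all genes to -0.099, and TPM lowered it to -0.20. With TMM 41.2% of the 51 were higher and 11.8% lower. With library totals 11 were higher (21.6%, beside 21.1% of all genes) and 10 lower (19.6%, beside 36.1%). With TPM (limma on log2(TPM + 0.1)) 5 were higher (9.8%, beside 14.3%) and 11 lower (21.6%, beside 39.1%). The share called higher was thus above, near or below that of all genes, depending on the scale. Relative to the median gene, the median of the 51 was 0.16 under each of the 3 scales. TMM and library totals differ by a factor per library that moves all genes alike, so their match was given in advance. Cdk1, Top2a, Ube2c, Bub1b and Ncapg were called higher on all 3 scales, with 0.51, 0.44, 0.34, 0.31 and 0.30 on the TPM scale. Kif23, Ncapd2, Racgap1, Cdc25b, Kif20a and Kif11 were called lower on all 3, with -0.78, -0.69, -0.54, -0.61, -0.45 and -0.37. Without the 4 libraries left out for liver transcripts, the estimates of Kif23, Cdc25b, Kif20a and Kif11 were -0.38, -0.19, -0.10 and -0.094. They were no longer called (edgeR, adjusted p = 0.122, 0.105, 0.306 and 0.372), with fewer libraries in the fit. Those of Ncapd2 and Racgap1 stood, at -0.20 and -0.18. Without undifferentiated BIGH3 2, which holds no such excess, Kif23, Kif20a and Kif11 stood at -0.38, -0.17 and -0.13 and were not called (adjusted p = 0.0507, 0.1 and 0.181).

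**Figure D3:**
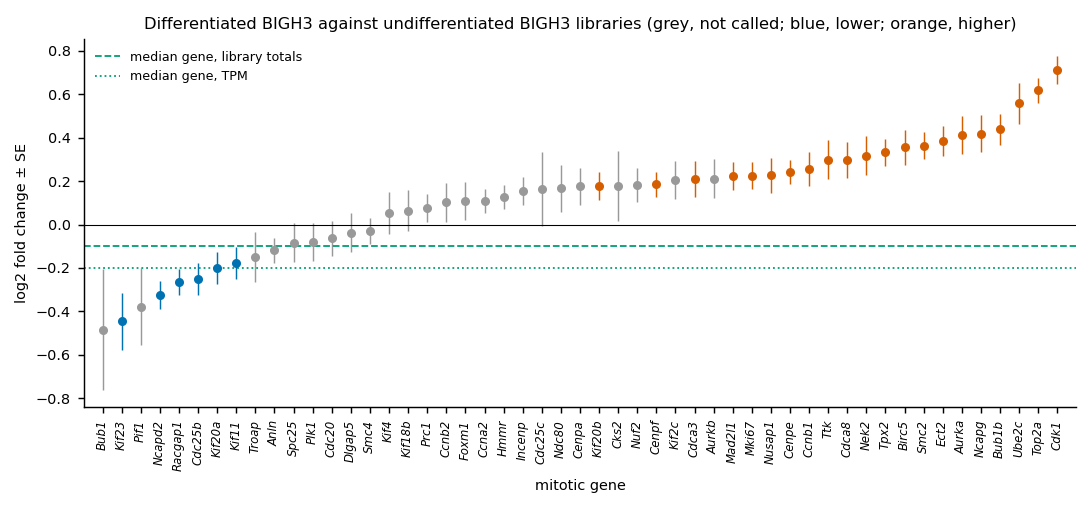
Log2 fold change ± SE (vertical axis) of each mitotic gene between differentiated and undifferentiated libraries given BIGH3, sorted by value. Grey points were not called, blue were lower and orange higher, and the green lines mark the median of all genes under library totals (dashed) and TPM (dotted). Values run from -0.485 for Bub1 to 0.712 for Cdk1, a narrower range than in the comparisons with differentiated controls.

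Levels can be compared between genes in TPM. In undifferentiated controls the highest means were those of Cdk1 at 126.7 ± 2.53 TPM (SD, n = 3), Top2a at 86.0 ± 5.25, Smc4 at 84.9 ± 4.43, Ube2c at 67.8 ± 5.47 and Birc5 at 66.0 ± 8.34. The lowest were Pif1 at 4.62 ± 0.735, Nek2 at 6.91 ± 0.107, Ttk at 6.91 ± 0.120 and Bub1 at 7.12 ± 0.667. Top2a and Smc4 did not differ beyond their spread, nor did the lowest genes other than Pif1. In differentiated controls Cdk1 stood at 80.0 ± 3.23 TPM and Smc4 at 49.0 ± 3.88, ahead of Top2a at 28.8 ± 1.83 and Ube2c at 15.4 ± 0.530. With BIGH3 in differentiated cells Cdk1 reached 177.7 ± 8.56 TPM, Top2a 112.9 ± 9.30 and Ube2c 89.8 ± 11.6, and Smc4 stood at 65.9 ± 2.85. By mean TPM, Smc4 ranked 3 in undifferentiated controls, where it was not apart from Top2a. It ranked 2 in differentiated controls and 5 in differentiated treated cells. The summed TPM of the 51 genes was 1629 to 1777 in undifferentiated controls and 1540.0 to 1716 in undifferentiated treated cells. The sum was 468.1 to 511 TPM for differentiated controls, and BIGH3 treated differentiated cells had 1551 to 1734 TPM, so that on this scale the treated groups of both states overlapped.

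Related genes were counted from lists drawn up by function. The lists were chosen with earlier results of these data known, so they are no independent check. Of 79 other mitotic genes, 74 were lower and 3 higher in differentiated than in undifferentiated controls, beside 28.6% and 29.1% of all genes. With BIGH3 in differentiated cells 75 were higher and 1 lower, beside 22.6% and 22.9% of all genes, with a median of 1.74. Aspm, a spindle pole protein, rose by 2.16 ± 0.068, and Ckap2l, Sgo2a (which guards centromeric cohesion) and Knstrn by 2.31 ± 0.084, 2.33 ± 0.085 and 2.21 ± 0.087. The exception was Pttg1, the securin gene, at -0.21 ± 0.080 (adjusted p = 0.0364). All 32 DNA replication genes were higher with BIGH3, with a median of 1.30, led by p-value by the helicase subunits Mcm3 (1.64 ± 0.057), Mcm5 (2.15 ± 0.081), Mcm2 (1.58 ± 0.062) and Mcm4 (1.43 ± 0.066). Of these 32, 29 were lower in differentiated controls, beside 28.6% of all genes. In differentiated against undifferentiated treated cells 19 were higher and 1 lower, beside 28.9% and 27.7% of all genes. These list counts were made with TMM only, and for the 51 genes the last comparison moved with the scale.

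Regulators upstream of the mitotic genes and genes of mitotic exit were counted in the same way for BIGH3 in differentiated cells, where 22.6% of all genes were higher and 22.9% lower. Of 22 tested genes of the DREAM and MuvB complexes, E2F factors and their partners, 13 were higher with BIGH3 in differentiated cells and 0 lower, with a median of 0.25. E2f7 and E2f8, the atypical repressors that are themselves E2F targets, rose by 2.07 ± 0.18 and 1.85 ± 0.16, Mybl1 by 1.30 ± 0.096 and the pocket protein gene Rbl1 by 0.90 ± 0.078. E2f4 and Rbl2, which bind target genes in resting cells, and the CCAAT-binding subunit genes Nfya and Nfyb were among the 9 not called. Of 18 APC/C subunits and inhibitors, 6 were higher and 4 lower, with a median of 0.07. Fbxo5, the interphase inhibitor EMI1, rose by 1.82 ± 0.11, against 0.50 ± 0.057 for Ube2s and 0.32 ± 0.049 for Cdc16. Cohesin had 5 of 10 genes higher and 0 lower, of which Rad21 moved most, at 0.42 ± 0.051. In the list of mitotic exit phosphatases and their regulators 2 of 13 were higher and 4 lower. The counts for the APC/C and the phosphatases lay near the shares of all genes. Mastl, the Greatwall kinase that keeps PP2A off in mitosis, rose by 1.36 ± 0.083, whereas Ensa, its substrate, fell by 0.26 on the log2 scale. Fbxo5 and Mastl are also on the list of other mitotic genes and were counted there as well.

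**Figure D4:**
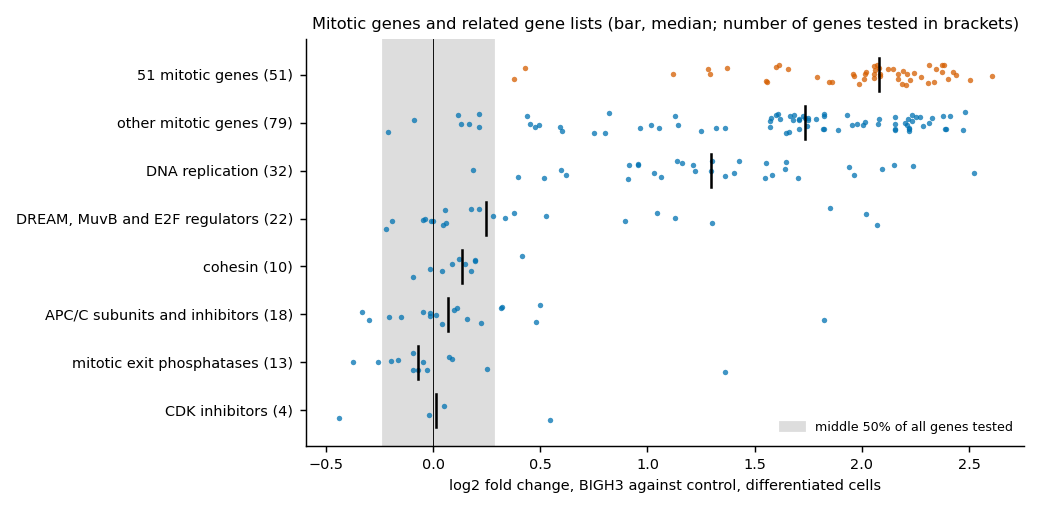
Log2 fold change for BIGH3 against control in differentiated cells (horizontal axis) of the 51 mitotic genes (orange) and the genes of 7 related lists (blue), with the number tested in brackets. Each point is a gene, the black bar is the median of the list and the grey band the middle 50% of all genes tested. The medians are 2.08 for the 51 genes, 1.74 for other mitotic genes, 1.30 for DNA replication and 0.25 or less for the other lists.

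CDK inhibitors halt the cycle by binding its kinases. Of 7 such genes 4 passed the filter. In differentiated against undifferentiated controls 1 was higher and 3 lower, beside 29.1% and 28.6% of all genes. With BIGH3 in differentiated cells 1 was higher and 1 lower, beside 22.6% and 22.9%. Cdkn1a (p21) was lower in differentiated than in undifferentiated controls, at -0.60 ± 0.056, and was not called with BIGH3 in differentiated cells, at 0.049 ± 0.056 (adjusted p = 0.507). Cdkn2c (p18) was higher on differentiation, at 0.69 ± 0.054, and lower with BIGH3, at -0.44 ± 0.054. Cdkn2d (p19) went the other way, at -0.56 ± 0.086 and 0.55 ± 0.087. In undifferentiated cells no gene of any of these lists was called with BIGH3.

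The promoters of the genes were searched for the elements named above, since the genes moved together. RefSeq promoter sequences (GRCm38.p6, from 250 bases before the start to 50 after it) were held for 41 of the 51 genes and not for Aurkb, Ccna2, Cdc25c, Dlgap5, Foxm1, Incenp, Kif20a, Pif1, Smc4 and Tpx2. CCAAT, on either strand, stood in 33 of the 41 (80.5%), beside 37.9% of 27025 genes in the same table, and 23 of the 41 (56.1%) held 2 or more matches, beside 12.2%. The CHR core TTTGAA, on either strand, stood in 30 of 41 (73.2%), beside 18.1% of all, and its variant TTCGAA, which reads the same on both strands, in 4 (9.8%), beside 1.6%. Both kinds of element stood together in 28 of 41 (68.3%), beside 7.7%. Within the 250 bases before the start alone, TTTGAA was found in 12 of 41 (29.3%), beside 16.3% of all genes. Most of the 30 genes with TTTGAA thus hold it only at or just after the annotated start. A match is a string of letters and shows no binding. The 250 bases before the start are printed for Cdk1, Ccnb2 and Plk1, as genes of mitotic entry, and for Cdc25b and Ube2c, the smallest and largest rise with BIGH3 among the genes with a sequence. Capitals mark CCAAT or its reverse ATTGG, and the CHR core TTTGAA with its reverse TTCAAA or the variant TTCGAA.
Cdk1 (chr10:69352913-69353162, minus strand): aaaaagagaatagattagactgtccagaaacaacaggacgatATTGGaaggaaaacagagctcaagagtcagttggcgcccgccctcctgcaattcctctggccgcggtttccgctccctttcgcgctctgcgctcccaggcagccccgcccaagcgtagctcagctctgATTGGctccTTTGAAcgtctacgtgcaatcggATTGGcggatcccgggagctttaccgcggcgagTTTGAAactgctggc
Ccnb2 (chr9:70421555-70421804, minus strand): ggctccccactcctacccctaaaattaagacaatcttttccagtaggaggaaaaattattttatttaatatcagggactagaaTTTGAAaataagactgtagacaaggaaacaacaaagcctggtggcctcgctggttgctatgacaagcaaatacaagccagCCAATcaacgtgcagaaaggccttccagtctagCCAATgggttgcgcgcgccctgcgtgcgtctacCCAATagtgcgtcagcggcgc
Plk1 (chr7:122159185-122159434, plus strand): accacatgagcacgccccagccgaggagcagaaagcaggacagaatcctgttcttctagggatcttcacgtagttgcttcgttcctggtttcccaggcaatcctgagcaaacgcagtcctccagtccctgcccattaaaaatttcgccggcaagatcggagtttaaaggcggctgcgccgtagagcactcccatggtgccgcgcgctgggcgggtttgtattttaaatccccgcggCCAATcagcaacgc
Cdc25b (chr2:131186698-131186947, plus strand): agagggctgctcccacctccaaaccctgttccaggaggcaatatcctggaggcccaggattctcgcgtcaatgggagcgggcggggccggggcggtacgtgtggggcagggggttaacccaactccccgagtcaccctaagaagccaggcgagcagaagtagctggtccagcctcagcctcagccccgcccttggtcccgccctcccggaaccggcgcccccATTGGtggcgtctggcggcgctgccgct
Ube2c (chr2:164769679-164769928, plus strand): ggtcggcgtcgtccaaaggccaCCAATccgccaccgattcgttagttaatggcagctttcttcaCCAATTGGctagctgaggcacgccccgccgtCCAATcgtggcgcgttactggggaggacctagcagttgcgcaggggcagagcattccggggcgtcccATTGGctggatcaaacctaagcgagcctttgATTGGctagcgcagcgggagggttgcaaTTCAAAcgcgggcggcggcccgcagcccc

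These sequences lie on chromosomes 10, 9, 7 and 2 in the order printed, each ending at the base before the annotated start. Cdk1 holds CCAAT matches on both sides of a TTTGAA and a second TTTGAA next to the start. Ccnb2 has evenly spaced CCAAT matches near the start, and its nearest TTTGAA lies after it, outside the printed bases. Plk1 has a single CCAAT match, with a TTTGAA after the start as well. Ube2c holds 6 CCAAT matches, of which a forward and a reverse match share bases in CCAATTGG, and a TTCAAA. Cdc25b, the gene that rose least, holds 1 CCAAT match before the start and a TTCGAA after it, so its 300 bases are not without these letters. The rises on the log2 scale were 1.12 for Cdk1, 2.07 for Ccnb2, 2.21 for Plk1, 0.38 for Cdc25b and 2.51 for Ube2c.

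The reads of a gene are sums over its annotated transcripts. The leading transcript, the one with the most summed TPM, was protein-coding for all genes other than Cenpa and Kif23. Shares given here are of the TPM of a gene, which corrects for length, and not of its reads. For Cenpa the leading transcript was annotated as a target of nonsense-mediated decay. It took a mean of 43.9% of the TPM in undifferentiated controls and 53.5% in differentiated treated cells. For Kif23 it was a processed transcript, at 37.2% in undifferentiated controls, 37.5% in undifferentiated treated cells, 44.6% in differentiated controls and 26.7% in differentiated treated cells, and its ranges over libraries overlapped between the groups. The leading transcript of Bub1 took 49.2% to 93.3% of the TPM in undifferentiated controls and 94.5% to 98.8% in undifferentiated treated libraries. Some genes share bases with neighbours, and the strand of the libraries is not given. Exons of 17 of the 51 overlap another gene, and for 7 of them (Ccna2, Cdca8, Kif4, Nusap1, Kif20a, Cdc20 and Ncapg) the neighbour on the opposite strand holds at least 10% as many reads, so that reads could be misassigned between them. Near-identical pseudogenes exist for several genes, but those of Ccnb1, Plk1 and Cdc20 held at most 8 reads in all 12 libraries, against 9221 for Ccnb1, while Gm15452 held 250 reads beside 4494 of Cks2.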

How the data were processed

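Total RNA of 12 libraries was prepared with the KAPA Standard kit, per the labels' protocols. Per the submitters' processing notes, the tools were Salmon, StringTie, cutadapt and FastQC and the build mm10; their versions are not given in the sources used here. Each deposited file gives, per transcript, the estimated counts (reads shared by the authors' model between transcripts), the TPM computed by the authors, and lengths. Of 147828 transcripts, 137063 (92.72%) were matched by identifier without version to GENCODE M21 (GRCm38), and the rest, with 1.28% to 3.67% of reads, were left out.

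Estimated counts and TPM were summed per gene, the counts rounded, filtered with filterByExpr by group and normalized with TMM. A robust quasi-likelihood model of edgeR 4.0.16 covered all 12 libraries, with 8 residual degrees of freedom. P-values are two-sided and adjusted by Benjamini-Hochberg over 14711 genes, and an adjusted p below 0.05 is a call. Errors of fold changes are standard errors worked back from the F statistic. The scripts were tested on simulated counts. DESeq2 1.42.0, limma 3.58.1 on log2(TPM + 0.1) and the other alternatives of the closing section were computed beside the main fit. Within groups, libraries differed by more than sampling noise (chi-square per degree of freedom 4.86 to 26.7).

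The genes, roles, lists and rules were chosen with earlier results of these data known. Values in every library are given for Mki67, Cdk1, Ccnb1, Plk1, Top2a, the 2 genes of each role with the smallest adjusted p for BIGH3 in differentiated cells, the extremes of each comparison, and up to 6 genes per comparison that were not called or went against the majority. From each list up to 4 genes with the smallest adjusted p are named, and Pttg1, E2f4, Rbl2, Nfya, Nfyb, Ensa and further single genes were named after their values were seen. Overlapping exons came from the annotation, and copies from BLAST+ 2.17.0 at 90% identity over 200 bases or more.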

Additional observations from a re-analysis of the deposited data

Results flagged for a closer look

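The effect of BIGH3 on the mitotic genes differed between undifferentiated and differentiated cells by a test of the difference itself, the interaction term of the edgeR model, for 50 of the 51 genes. Among the genes given in full, the interaction on the log2 scale was 1.90 for Mki67, 1.96 for Top2a, 1.08 for Cdk1, 2.28 for Ccnb1, 2.10 for Plk1, 2.69 for Cdc25c and 0.39 for Smc4. All of these were positive, so the effect was larger in differentiated cells. Groups of 3 libraries are too small for a search for single libraries far from the others.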

How the results depend on the processing

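The counts of mitotic genes called for BIGH3 in undifferentiated cells (0 and 0), for BIGH3 in differentiated cells (51 higher), for differentiation of control cells (51 lower) and for the interaction (50 or 51) were the same or within 1 gene under each alternative. The alternatives were DESeq2, library totals, RLE size factors, no filter, a replicate block and TPM. The compared groups alone were also used, but not for the interaction, which needs all 4 groups. Each library was left out in turn, as were the 3 or 4 libraries named above for liver transcripts. With the replicate block, 51 genes were called in the interaction, beside 16.0% of all genes called positive. In differentiated against undifferentiated treated cells it gave 25 higher and 8 lower, beside 28.8% and 27.7% of all genes. The numbers do not pair the libraries: 4 of 18 pairs of the same number had a correlation of deviations over 0.1 (range -0.224 to 0.35), and 3 of 12 libraries correlated best with their own number.

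The count that moved was that of differentiated against undifferentiated treated cells (21 higher, 6 lower). Library totals gave 11 and 10, where 21.1% of all genes were higher and 36.1% lower, and TPM gave 5 and 11, where 14.3% were higher and 39.1% lower. Both lower the median gene. Leaving out the 3 libraries richest in liver transcripts gave a lower count of 3, beside 26.3% of all genes. Leaving out 4 gave 2, beside 24.0%. With 1 library left out the lower count was 3 to 7, beside 24.5% to 26.3% of all genes. The higher count was then 16 to 25, beside 24.7% to 26.4%. Without undifferentiated BIGH3 2 the lower count was 3, and the cause was not tested. On the TPM scale the sign changed for Ccnb1 (-0.037), Cdca3 (-0.066), Cdca8 (-0.099) and Kif20b (-0.044), none called there. Signs of estimates called in neither setting changed 80 times of 765 for BIGH3 in undifferentiated cells and 27 of 765 here. For differentiation of controls, library totals and TPM moved the median gene to -0.16 and -0.31. In the 250 bases before the start alone, TTTGAA was found in 12 of 41 promoters, TTCGAA in 2, either in 13, and either with CCAAT in 12 (16.3%, 1.3%, 17.4% and 6.2% over all genes), since later matches fall outside that window.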
